A study of Mus musculus with 18 samples.

Results

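Ribosome footprints were compared between left ventricles of mice lacking mORF4/NBDY, the protein of the gene Nbdy, and wild-type ventricles. The comparison used the 9 footprint libraries of the series' 18 libraries, 5 from knockout hearts 6 to 10 and 4 from wild-type hearts 1 to 4. All 9 mice were untreated C57BL/6 males of 20 weeks, with 1 footprint library per heart. The sources used here do not give how the allele was made or whether the groups were littermates. Genes entered the comparison by their footprint level alone, a mean of at least 10 normalized reads over the 9 libraries, which 9976 of the 10597 listed genes reached. A normalized read is a read count divided by the authors' size factor for that library. Differences are knockout minus wild type on log2(value + 1), a scale that understates the change of low genes. The test was limma with Benjamini-Hochberg adjustment over all 9976 genes, with an adjusted p below 0.05 as the threshold.

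A translating ribosome shields a short stretch of mRNA from nuclease, and the sequenced stretches, the footprints, record which transcripts carry ribosomes and how many. Footprint levels follow both the amount of a transcript and how heavily it is loaded, so they need not move with RNA. NBDY, a microprotein, binds the decapping scaffold EDC4 and is known for lowering the number of P-bodies, the granules where mRNA decapping factors gather. In the ventricle most footprints come from cardiomyocytes, which make sarcomere, calcium-handling and mitochondrial proteins.

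The footprint libraries were those of ventricular muscle. Ventricular cardiomyocyte markers held 13.8% ± 0.541 across wild-type hearts (SD, n = 4) and 14.7% ± 0.431 across knockout hearts (SD, n = 5) of all footprint reads over listed genes, and all 10 were tested. Sarcomere genes as a whole held 16.4% ± 1.18 across wild-type hearts (SD, n = 4) and 17.6% ± 0.682 across knockout hearts (SD, n = 5), and nuclear oxidative phosphorylation genes 9.29% ± 0.269 across wild-type hearts (SD, n = 4) and 9.18% ± 0.342 across knockout hearts (SD, n = 5). Genes of calcium cycling and excitation held 3.87% ± 0.276 across wild-type hearts (SD, n = 4) and 3.84% ± 0.296 across knockout hearts (SD, n = 5), and genes of fatty acid oxidation 4.00% ± 0.358 across wild-type hearts (SD, n = 4) and 4.22% ± 0.332 across knockout hearts (SD, n = 5). Single genes with a large part of the reads were Actc1, the cardiac actin, at 3.26% ± 0.140 across wild-type hearts (SD, n = 4) and 3.41% ± 0.436 across knockout hearts (SD, n = 5), and Atp2a2, the sarcoplasmic reticulum calcium pump, at 2.66% ± 0.225 and 2.62% ± 0.244. Myh6, the adult ventricular myosin heavy chain of the mouse, took 2.74% ± 0.557 and 3.50% ± 0.287. Tpm1, Myl2, Myl3, Mb, Atp5b, Slc25a4 and Gm20594 complete the 10 genes with the highest wild-type mean. These shares are of reads, not corrected for coding length, so they do not rank genes by translation rate. The 10 genes together took 20.0% ± 1.62 across wild-type hearts (SD, n = 4) and 19.8% ± 0.396 across knockout hearts (SD, n = 5). Of these totals Gm20594 took 1.52% ± 2.31 (SD, n = 4) and 0.396% ± 0.119 (SD, n = 5). Its place among the 10 rests on wild-type heart 2, where its share was 4.98%. Atrial markers held 0.119% ± 0.0546 (SD, n = 4) and 0.0638% ± 0.035 (SD, n = 5), and Sln and Bmp10 of that list were not among the listed genes.

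Depth differed widely between hearts of the same genotype. Reads summed over listed genes ran from 6.67 to 36.7 M (1e6 reads) in wild type and from 22.9 to 40.8 M in knockout, a difference in means of 6.31 M (1.23 M without heart 2) that an exact two-sided permutation test did not pass (p = 0.413; the smallest p this design allows is 0.0159). Wild-type heart 2 was the shallowest and stood apart on the first principal component, which held 24.2% of the variance among genes tested. Its score was 52.9, against -7.33 to 5.75 in the other wild-type hearts and -44.0 to 13.2 in knockout. Knockout heart 6 stood apart on the second component (18.7% of the variance) at -54.3, where all other hearts lay between -2.23 and 29.3, and knockout heart 8 had the lowest score on the first. One predicted gene, Gm20594, held 1145859 normalized reads in heart 2, or 4.98% of its reads, and 54142 to 121185 in the other 8 hearts. Differences and list medians that moved by over 1.5 times without heart 2 are given with that value beside them.

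**Figure D1:**
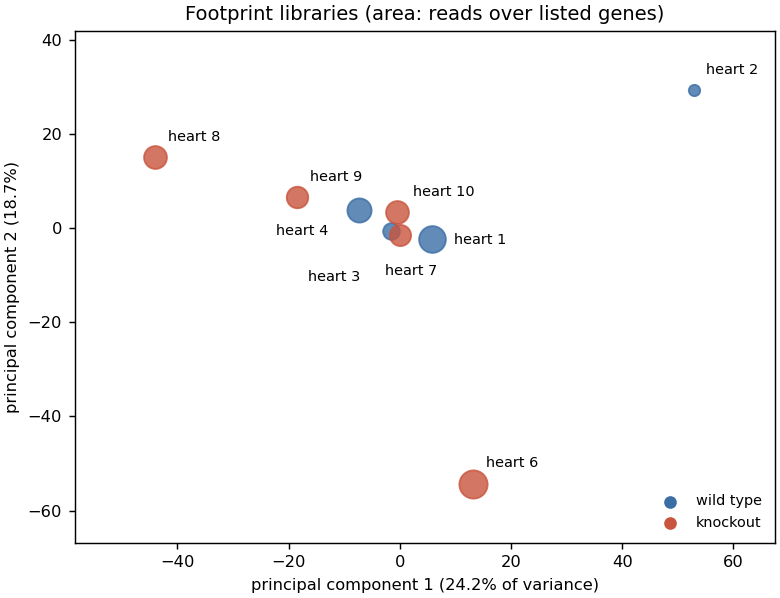
Scores of the 9 footprint libraries on the first and second principal components of log2(value + 1) over the 9976 genes tested, in arbitrary units; point area follows the reads over listed genes. Hearts 2, 6 and 8 lie away from a central cluster that holds both wild-type and knockout hearts.

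Of the 621 genes under the minimum, 285 had no footprint read in any heart, although 368 of the 621 had a mean of at least 100 normalized RNA reads in the same hearts. Among them were 15 of 83 cytosolic ribosomal protein genes and 19 of 45 listed replication-dependent histone genes, both families with many near-identical copies. Rpsa, a small-subunit protein, had a mean of 0.736 footprint reads beside 11990 RNA reads, and Rps6, of the same subunit, had 1.84 beside 6749. The sources used here do not say how reads that match several places were counted, so the levels of such families are uncertain. Just outside the minimum lay Gm527 and Cd300ld2, with means of 9.99 and 9.96, and just inside it Zfp963 and Idi1, with means of 10.0 and 10.1.

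Footprints of 2 of the 9976 genes passed the test, both lower in knockout, which is 0.02% of genes tested, and no gene passed higher (0%). The 2 genes were Nbdy itself and Nppb, which encodes brain natriuretic peptide, the hormone that cardiomyocytes release under stretch. Without adjustment, p was below 0.05 for 228 genes higher (2.29%) and 277 lower (2.78%), or 5.06% together. Run on the whole reads recovered from the values, edgeR passed 0 genes higher (0%) and 2 lower (0.02%), and DESeq2 passed 2 higher (0.0201%; Cenpf and Myh8) and 4 lower (0.0401%; Nbdy, Nppb, Cpxm2 and Ighg2c). Without wild-type heart 1, 2 or 3, each left out in turn, limma passed 0 genes higher and 0 lower. The groups did not overlap, meaning every knockout heart lay on one side of every wild-type heart, for 77 genes higher (0.772%) and 83 lower (0.832%). The median difference over all genes was -0.00, and 50.5% of genes had a lower mean in knockout.

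The targeted gene checked the labels (X, 153723477 to 153741302, GRCm38). Nbdy footprints, in normalized reads as all footprint values here, were 107, 355, 151 and 119 in wild-type hearts 1 to 4 and 13.8, 16.3, 11.3, 10.9 and 19.0 in knockout hearts 6 to 10. All 5 knockout hearts lay far below all 4 wild-type hearts, and heart 2 was the highest of the wild type. The difference of -3.45 ± 0.48 (SE) had a 95% interval of -4.47 to -2.42 (limma adjusted p = 0.0191). Footprints were not at 0 in any knockout library. In recovered reads Nbdy had 177, 103, 97 and 157 in wild type, 534 in all, and 25, 17, 13, 11 and 23 in knockout, 89 in all. Where in the gene these remaining reads fall is not given by the table. Nbdy RNA in the same hearts was 116, 114, 113 and 100.1 in wild type and 61.8, 75.5, 66.7, 73.7 and 90.0 in knockout, a difference of -0.59 with no overlap (exact two-sided permutation p = 0.0159, the smallest possible; 0.0317 adjusted over the 2 genes tested). Such an RNA result is common here: RNA groups did not overlap, lower in knockout, for 20.6% of genes, and RNA depth ran with genotype. Without wild-type heart 1, 2 or 3 the footprint call was lost (limma adjusted p = 0.0978, 0.194 and 0.116), with differences of -3.64, -3.07 and -3.48. Over all alternatives the adjusted p ran from 4.05e-13 to 0.194.

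Nppb footprints fell to 51.1% of the wild-type mean (chromosome 4, 147985786 to 147987205, GRCm38). The values were 16340.3, 14758, 12459.5 and 10791 in wild-type hearts 1 to 4 and 6660.3, 5619.7, 6367, 6678 and 9398 in knockout hearts 6 to 10. Every knockout heart lay below every wild-type heart, and heart 10, the highest of the knockout, was closest to the wild type. The means were 13587 ± 2452 (SD, n = 4) and 6945 ± 1437 (SD, n = 5), and the difference was -0.97 ± 0.15 (SE) with a 95% interval of -1.29 to -0.66 (limma adjusted p = 0.0289). Nppb RNA was 2048, 1758, 1466 and 1286 in wild-type hearts 1 to 4 and 1869.8, 1631, 1479.6, 1599 and 2812 in knockout hearts 6 to 10. The RNA groups overlapped, the highest and the lowest heart were heart 10 of the knockout and heart 4 of the wild type, and the RNA difference was 0.18 (exact two-sided permutation p = 0.508; the smallest p this design allows is 0.0159). The 4 wild-type hearts had the same order in footprints as in RNA, and heart 10 was the highest knockout heart in both. Footprint reads per RNA read were 7.98 to 8.50 in wild type and 3.34 to 4.30 in knockout. The assays were scaled separately and RNA depth ran with genotype. The share of all genes whose ratio separates the genotypes is not given here. The footprint call was lost without any 1 of hearts 1, 2, 3, 6, 7, 8 and 9 (limma adjusted p from 0.10 to 0.194; 0.194 without heart 2), while the difference stayed between -1.09 and -0.88. With no mean-variance trend the adjusted p was 0.871, and over all alternatives it ran from 5.49e-06 to 0.871.

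**Figure D2:**
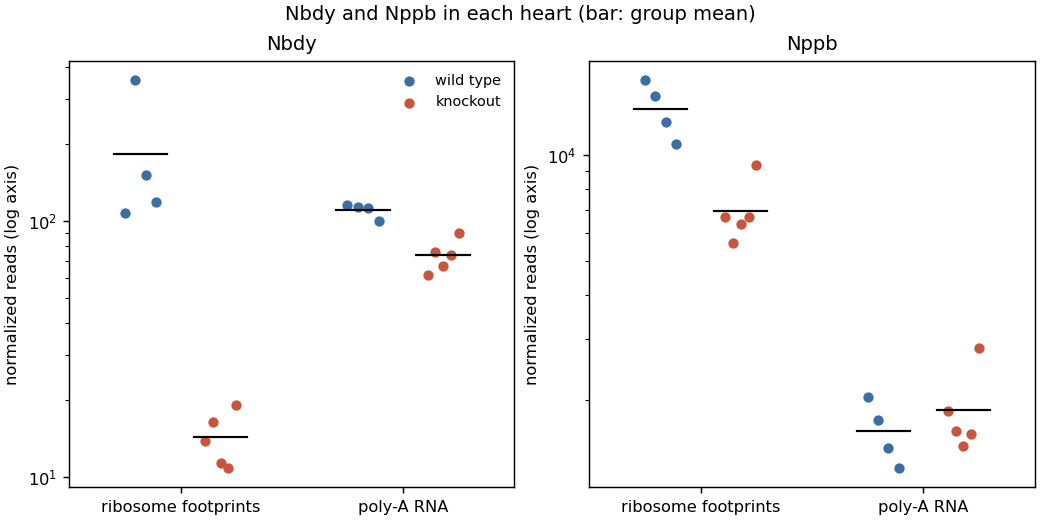
Nbdy (left) and Nppb (right) in each heart, as normalized footprint and poly-A RNA reads on log axes; points are hearts and bars are group means. Knockout footprints of both genes lie below every wild-type heart, while Nppb RNA overlaps between genotypes.

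No other member of the natriuretic and hypertrophy programme passed the test. Of 14 members tested, 1 passed, Nppb (0.02% of all genes passed lower), and 2 had groups that did not overlap, both lower (0.832% of all genes). Members did not all move in 1 direction: 8 had a lower mean and 6 a higher mean, with differences from -1.25 to 0.73. The median difference was -0.19 beside -0.00 over all genes (-0.08 without heart 2). Unadjusted limma p was below 0.05 for 4 members lower and 0 higher, beside 2.78% and 2.29% of all genes. Summed footprints of the list ranged from 192095 to 281493 in wild type and from 161080 to 189125 in knockout, without overlap. As shares of footprint reads the hearts overlapped, at 0.834% to 1.27% in wild type and 0.687% to 0.859% in knockout. Such sums and shares follow the genes with most reads. Acta1, the skeletal actin of fetal and stressed ventricles, was 53086, 43501, 80319.7 and 43169 in wild-type hearts 1 to 4 and 27351, 36401, 26110.5, 11754 and 18436 in knockout hearts 6 to 10. Every knockout heart was below every wild-type heart, with heart 9 lowest and heart 3 highest, and the difference was -1.25 ± 0.26 (SE) (limma adjusted p = 0.293). Acta1 RNA was 18098, 15174, 24631 and 14519 in wild type and 11126, 17819.9, 9391, 4949.8 and 8687 in knockout, and overlapped. Actin genes have near-identical coding sequences, so reads may be shared between Acta1, Actc1, Acta2 and Actg2 and their values are uncertain. Nppa, the atrial natriuretic peptide, was 36633, 23176, 25305 and 8994 in wild-type hearts 1 to 4 and 13872, 18388, 6509, 6873 and 5058 in knockout hearts 6 to 10. Its groups overlapped through wild-type heart 4, and the difference of -1.23 ± 0.37 (SE) did not pass (limma adjusted p = 0.851). The summed footprints of the 5 atrial markers tested, Nppa among them, ranged from 11229 to 40775 normalized reads in wild type and from 7436 to 23306 in knockout. Their median was 0.25 and 4 of 5 had a higher mean in knockout, but the median was 0.47 without heart 2 and its sign turned without wild-type heart 3 or knockout heart 6 (range -0.23 to 0.60 with a heart left out). One of the 4 was the atrial light chain Myl7 at 0.38 (limma adjusted p = 0.854). Myl7 was 2274, 2288, 1012 and 1204 in wild-type hearts 1 to 4 and 4176, 2639, 1116, 2186 and 1409 in knockout hearts 6 to 10. The part of atrial tissue in the values of Nppb and Nppa was not tested.

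Next in order of p came genes that the test did not pass in either direction. Among genes with a mean of at least 50, the 12 higher and the 12 lower with the smallest unadjusted p had adjusted p from 0.29 to 0.851. All values were in hand when these genes were ranked, so they are described and not tested further. Groups did not overlap for 7 of the 12 higher and 8 of the 12 lower genes, beside 0.772% and 0.832% of all genes tested. Ranking by p favours genes without overlap, so these counts are no separate result.

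**Figure D3:**
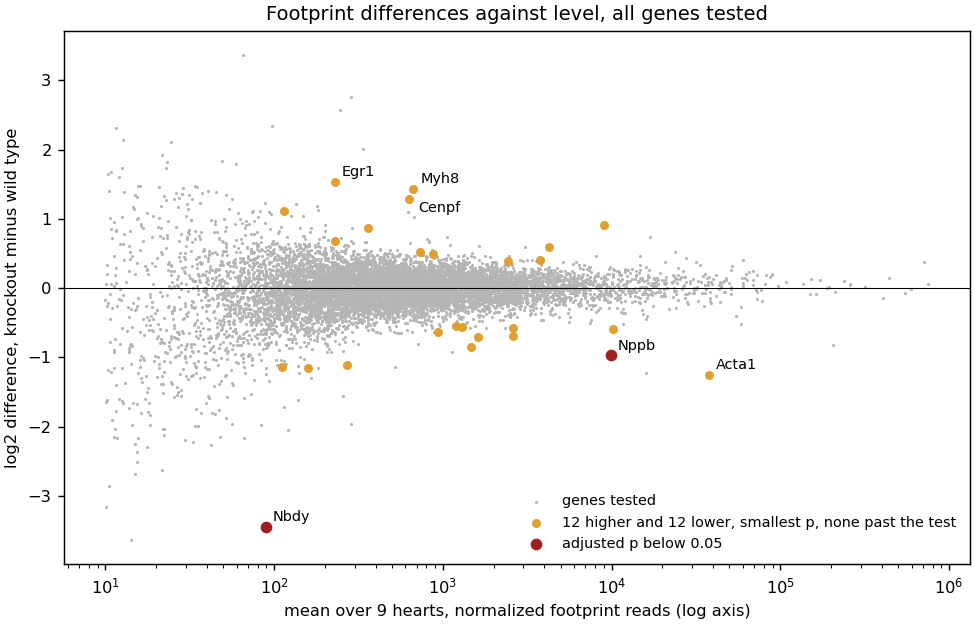
Difference in footprints (log2, knockout minus wild type) against the mean over 9 hearts on a log axis, 1 point per gene tested. Nbdy and Nppb are the genes past the test, and the scatter widens toward low levels.

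On the higher side, Cenpf, a kinetochore protein of dividing cells, was 235, 383, 266 and 539 in wild-type hearts 1 to 4 and 653, 571, 1141, 1027 and 871 in knockout hearts 6 to 10. The knockout hearts were all above the wild type, and the difference was 1.29 ± 0.25 (SE) (limma adjusted p = 0.29; DESeq2 adjusted p = 0.00213, with a range over all alternatives from 0.00213 to 0.953). Myh8, the perinatal myosin heavy chain, was 363, 186, 505 and 309.8 in wild-type hearts 1 to 4 and 923, 891, 1388, 975 and 448 in knockout hearts 6 to 10. Heart 10 of the knockout lay within the wild-type range, and the difference was 1.44 ± 0.29 (SE) (limma adjusted p = 0.293; DESeq2 adjusted p = 0.0009, with a range from 0.0009 to 0.953). Myosin genes share sequence, so the value of Myh8 is uncertain, and its RNA had means of 52681 and 25304, lower in knockout. Without heart 2 the differences were 1.35 for Cenpf and 1.18 for Myh8. Cenpf passed limma without wild-type heart 4 (adjusted p = 0.0448) and Myh8 without knockout heart 10 (adjusted p = 0.0287).

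Armcx1, an X-linked armadillo-repeat protein of mitochondria, was 74.6, 72.5, 60.7 and 68.2 in wild-type hearts 1 to 4 and 169, 142, 136, 147 and 156 in knockout hearts 6 to 10. Both groups were tight and far apart, its RNA overlapped with a difference of -0.01, and its footprint difference was 1.11 ± 0.27 (SE) (limma adjusted p = 0.851). With no mean-variance trend it passed (adjusted p = 0.0199; range over all alternatives 0.0199 to 0.958). Egr1, an immediate early transcription factor, was 59.4, 200.2, 62.3 and 138 in wild-type hearts 1 to 4 and 245, 226, 589.8, 337 and 199 in knockout hearts 6 to 10, a difference of 1.54 ± 0.38 (SE) with overlapping groups. Among RNA-processing factors, the splicing coactivator Srrm1 and the splicing regulator Rbfox1 differed by 0.53 and 0.49 without overlap, while their RNA differed by -0.66 and -0.50, also without overlap. RNA groups did not overlap for 40.5% of genes (19.8% higher and 20.6% lower), and limma passed 49.4% of genes in RNA, so such an RNA difference is common in these hearts. RNA libraries do not mark strand, and RNA depth ran with genotype, with 11.2 to 12.4 M recovered reads per wild-type heart and 15.8 to 20.2 M per knockout heart, so the part of depth cannot be told apart from genotype in RNA. The nucleoside transporter Slc29a2 (0.68), the membrane linker Ezr (0.39) and Asb15, a muscle ankyrin-repeat protein (0.41), did not overlap either. Sox7, an endothelial transcription factor (0.86), Cyfip2 of the WAVE complex (0.59) and the smooth muscle actin Actg2 (0.92) overlapped. Actg2 was highest in knockout hearts 6 and 7, at 16734 and 16186, beside 6460.4 to 10549.99 in the other knockout hearts and 4079 to 7841 in wild type.

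On the lower side after Acta1 came Cpxm2, a secreted carboxypeptidase-like protein, at 2613, 1798, 2119 and 1699.96 in wild-type hearts 1 to 4 and 1188, 1518, 1250.01, 1069 and 1213 in knockout hearts 6 to 10. The groups did not overlap, and the difference was -0.71 ± 0.15 (SE) (limma adjusted p = 0.293; DESeq2 adjusted p = 0.0106, with a range over all alternatives from 0.0106 to 0.953). Cpxm2 RNA had means of 1563 and 1011, with overlapping hearts. Tfrc, the transferrin receptor that takes up iron, was 3872, 3289, 2629 and 2945 in wild-type hearts 1 to 4 and 2263, 2672, 2019.7, 1844 and 1902 in knockout hearts 6 to 10, a difference of -0.57 ± 0.14 (SE). Only knockout heart 7 lay within the wild-type range. Ctsl, a lysosomal protease, was 17113, 11572, 13615 and 8651 in wild-type hearts 1 to 4 and 8622, 8183, 7449.7, 8698 and 7959.8 in knockout hearts 6 to 10, a difference of -0.60 ± 0.15 (SE), and wild-type heart 4 lay among the knockout hearts. The RNA of both was lower in knockout without overlap, by differences of -0.72 and -0.94.

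Muscle and mitochondrial proteins were also among the 12 lower genes. Myot, a protein of the Z-disc, differed by -0.68 in footprints and -1.24 in RNA. Mpc1, a subunit of the mitochondrial pyruvate carrier, was 1692, 2292, 1668 and 2059.8 in wild-type hearts 1 to 4 and 691, 710.3, 1292, 1247 and 1648 in knockout hearts 6 to 10, with hearts 6 and 7 at less than the other knockout hearts, and a difference of -0.86 ± 0.22 (SE). Tomm6, a small subunit of the outer-membrane import channel, differed by -0.54 in footprints and 0.59 in RNA, lower in one and higher in the other with no overlap in either. The linker histone Hist1h1d, likewise without overlap, was at -1.16 in footprints and 0.65 in RNA. Ss18l2 (-0.63), C2cd2l (-1.14) and the predicted gene Gm5426 (-1.11) did not overlap, and Gng11, a G protein gamma subunit (-0.56), did. Ighg2c, which DESeq2 passed at an adjusted p of 0.0187, had 1.21, 0, 14.0 and 118 in wild type and 0.550, 0, 0, 0 and 0.828 in knockout, so its difference rests on wild-type heart 4, and the limma adjusted p was 0.854.

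**Figure D4:**
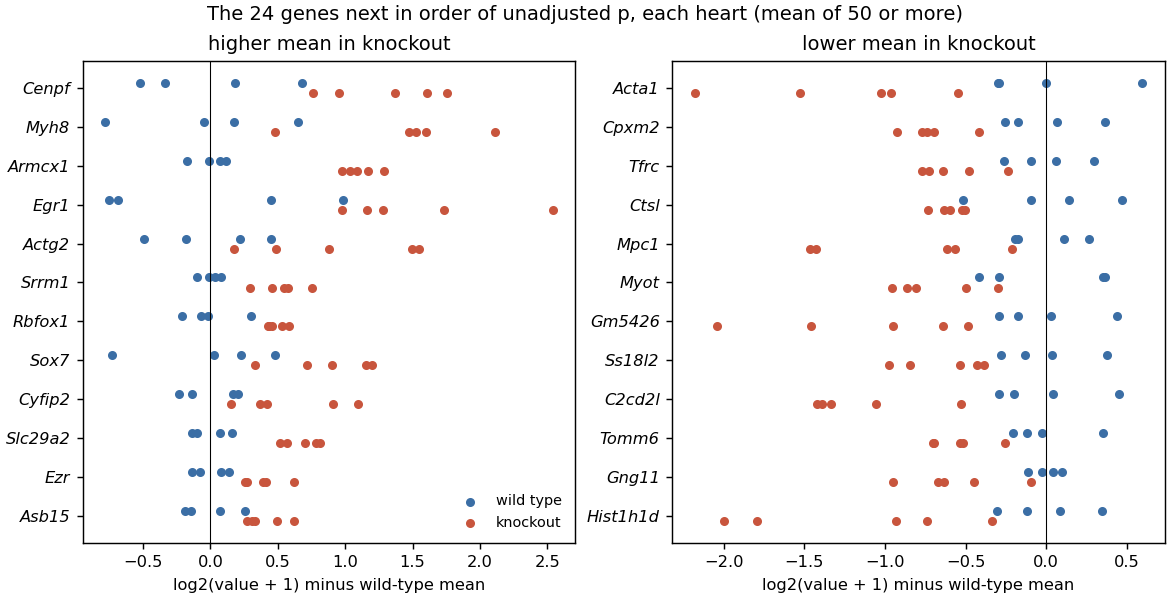
Footprints of the 12 higher and 12 lower genes with the smallest unadjusted p and a mean of at least 50, as log2(value + 1) minus the gene's wild-type mean; each point is a heart. In 15 of these genes the 2 groups do not overlap (0.772% higher and 0.832% lower over all genes), a count that ranking by p favours. None of the 24 passed the limma test.

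Genes of the pathway that NBDY belongs to showed no footprint difference past the test. Of 37 mRNA decapping and P-body genes tested, 0 passed, 16 had a lower mean, 1 had groups that did not overlap (lower; 0.832% of all genes), and the median was 0.05. Edc3, an enhancer of decapping, had means of 249 ± 38.5 (SD, n = 4) and 176 ± 30.7 (SD, n = 5) with overlapping hearts, a difference of -0.50 ± 0.22 (SE) (limma adjusted p = 0.851). Lsm3, a subunit of the LSM ring that binds shortened mRNA ends, was 698, 942, 776 and 787 in wild-type hearts 1 to 4 and 429.9, 698, 698, 691 and 685 in knockout hearts 6 to 10, with heart 6 far below and the other knockout hearts under the lowest wild-type heart, heart 7 by less than 1 read (-0.34 ± 0.17 (SE)). Edc4, the scaffold that NBDY binds, had a difference of 0.03 with a 95% interval of -0.27 to 0.33, and Dcp1a, a decapping activator, 0.25 with -0.33 to 0.83; both were named after their values were seen. For 32 of the 37 genes the interval lay within 1 on the log2 scale. The list took 0.113% ± 0.00148 across wild-type hearts (SD, n = 4) and 0.113% ± 0.00517 across knockout hearts (SD, n = 5) of footprint reads. Of 15 nonsense-mediated decay and exon junction genes, 0 passed, 11 had a higher mean and the median was 0.15 (0.04 without heart 2). Smg9, a regulator of the kinase of that pathway, and Rbm8a, an exon junction core protein, differed by 0.74 (0.44 without heart 2) and 0.30.

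No gene of the translation machinery passed the test. Of 55 translation factors 0 passed, 40 had a higher mean, and the median was 0.08 (0.00 without heart 2), with the helicase cofactor Eif4h at 0.24 and the start-codon factor Eif1b at -0.33 (-0.21 without heart 2). Of 68 cytosolic ribosomal protein genes tested 0 passed and the median was 0.15 (0.07 without heart 2), but the heart medians spread widely, from -0.40 in knockout heart 7 to 0.74 in knockout heart 8. Rps2 (0.92) and Rpl30 (2.56) had its smallest p. Rpl30 had 4.24, 13.8, 14.0 and 508 in wild type and 60.5, 12.5, 633, 546 and 413 in knockout, a jump between hearts of the same genotype. Both belong to families with many copies and are uncertain. Stress mRNAs with upstream reading frames, whose translation rises when initiation is limited, had 9 tested members and 0 past the test, with a median of -0.13 whose sign turned without wild-type heart 3 or knockout heart 8 (range -0.21 to 0.11 with a heart left out). Atf4 was at -0.30 (-0.05 without heart 2) and Atf5 at -1.12 (-1.47 to -0.44 with a heart left out).

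No sarcomere, calcium or skeletal muscle gene passed the test. Of 24 sarcomere genes 20 had a higher mean, with a median of 0.13 that was 0.01 without heart 2. Myh6 was 620447, 473699.9, 759107 and 608833 in wild-type hearts 1 to 4 and 751429.6, 702685, 919115, 811517 and 781189 in knockout hearts 6 to 10, a difference of 0.38 ± 0.16 (SE) with overlapping groups, and Myh7b, a slow-type myosin gene, differed by 0.55. Of 20 calcium cycling and excitation genes 14 had a higher mean (median 0.15). Cacna1c, the pore of the L-type calcium channel, was 6871, 6088, 7069.9 and 6021 in wild-type hearts 1 to 4 and 8591, 7391, 7790.2, 8470.3 and 7761 in knockout hearts 6 to 10, without overlap, a difference of 0.30 ± 0.10 (SE) (limma adjusted p = 0.851). Kcnj2, an inward rectifier potassium channel, was at 0.40. The 10 ventricular markers had a median of 0.02 (0.05 without heart 2), with Ryr2, the calcium release channel, at 0.19 (0.07 without heart 2). Skeletal muscle markers had a median of 0.07 over 10 genes, which was -0.09 without heart 2 and ranged from -0.09 to 0.17 with a heart left out, Acta1 and Myh8 being the 2 with the smallest p.

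In energy metabolism no gene passed, and the 95% interval lay within 1 on the log2 scale for 76 of 81 oxidative phosphorylation and 33 of 36 fatty acid oxidation genes. Of 81 oxidative phosphorylation genes 0 passed, 55 had a lower mean, 3 did not overlap (all lower; 0.832% of all genes), and the median was -0.09 (-0.03 without heart 2). Ndufb2, an accessory subunit of complex I, was 11685, 15469, 14679 and 12782 in wild-type hearts 1 to 4 and 10449, 10633, 10651, 10915 and 10467 in knockout hearts 6 to 10, a difference of -0.35 ± 0.11 (SE). Ndufs8, an iron-sulphur subunit of the same complex, was 17712, 16083, 16371 and 17331 in wild-type hearts 1 to 4 and 12710.1, 13490.2, 13414, 13421 and 15109 in knockout hearts 6 to 10, a difference of -0.31 ± 0.10 (SE). In both genes every knockout heart was below every wild-type heart, the knockout hearts of Ndufb2 lay between 10449 and 10915, and the RNA means were higher in knockout, by 0.16 and 0.44 on the log2 scale. Of 36 fatty acid oxidation genes 0 passed, 29 had a higher mean, and the median was 0.12 (0.07 without heart 2). The fatty acid transporter Slc27a1 was at 0.60 and the thiolase Acaa2 at 0.40, both highest in knockout hearts 8 and 9.

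Genes that respond within minutes or over the day varied between hearts of the same genotype. Immediate early genes had a median of 0.31 over 20 members, 17 of them with a higher mean and 0 past the test. The median of the list in each heart, relative to the wild-type means, was -0.49, 0.17, 0.23 and -0.06 in wild-type hearts 1 to 4 and 0.48, 0.69, 0.51, 0.12 and -0.06 in knockout hearts 6 to 10. Jun was at 0.46. Circadian clock genes had a median of 0.32 over 18 members, with heart medians of -0.35, -0.24, 0.31 and 0.23 and -0.60, 0.65, 0.56, 0.51 and 0.45, so knockout heart 6 lay below all other hearts and the other 4 knockout hearts above the wild type. The clock output factor Hlf and the repressor Nr1d1 differed by 0.69 and 0.47 (0.19 for Nr1d1 without heart 2). The sources used here do not give the time of day of collection, so its part cannot be told apart from genotype. Of 22 heat shock and chaperone genes 16 had a higher mean (median 0.12). The inducible chaperone Hspa1a was 1.82, 86.3, 29.6 and 45.5 in wild-type hearts 1 to 4 and 44.6, 1955, 211, 34.6 and 179 in knockout hearts 6 to 10, highest by far in heart 7, and the cochaperone Bag3 differed by 0.47 (limma adjusted p = 0.851).

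Proliferation and replication genes had 10 members tested, 0 past the test and a median of 0.29, which was 0.02 without heart 2; Cenpf was followed by the helicase subunit Mcm4 at 0.36 (0.07 without heart 2). Of 26 replication-dependent histone genes tested 0 passed and 1 did not overlap (Hist1h1d, lower; 0.832% of all genes). The median was -0.06, was -0.23 without heart 2 and turned sign without knockout heart 6 or 7 (range -0.23 to 0.13 with a heart left out), with Hist1h4d at -0.36. Interferon response genes had a median of -0.11 over 34 genes, with the class I histocompatibility gene H2-D1 at -0.46 and the interferon-inducible GTPase Iigp1 at 0.61.

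No marker of another cell type passed the test, and the medians of several of these lists moved toward 0 without heart 2. In bulk ventricle, fewer cells of a type and fewer footprints per cell cannot be told apart. Of 20 macrophage and myeloid markers tested 19 had a lower mean in knockout and 0 passed, with a median of -0.31. The heart medians were -0.20, 0.65, -0.16 and -0.21 in wild type and -0.02, -0.22, -0.38, -0.60 and -0.31 in knockout, and without heart 2 the list median was -0.07. Their summed footprints ranged from 41208 to 79039 in wild type and from 33599 to 49123 in knockout. Cd74, the invariant chain of antigen presentation, was 12982, 19459, 14501 and 9857 in wild-type hearts 1 to 4 and 10551, 8457, 9159, 8148 and 12114 in knockout hearts 6 to 10, a difference of -0.52 ± 0.17 (SE) (-0.36 without heart 2), and Ctss, a protease of the same pathway, was at -0.49 (-0.32 without heart 2). Extracellular matrix genes had a lower mean in 35 of 40 and a median of -0.13, which was 0.03 without heart 2. Their heart medians were -0.16, 0.50, -0.13 and -0.18 in wild type and 0.30, -0.17, -0.19, -0.44 and -0.16 in knockout, so heart 2 of the wild type and heart 6 of the knockout were both high. Fibroblast markers were high in the same hearts, at -0.15, 0.43, -0.23 and -0.11 and 0.21, -0.16, -0.20, -0.26 and -0.13, with a median of -0.11 over 11 genes (0.05 without heart 2). Col1a1 and Col3a1, the fibrillar collagens, differed by -0.24 and -0.23, and Eln, elastin, by -0.65. Without heart 2 these were -0.02, -0.13 and -0.36.

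Of 18 endothelial markers 14 had a lower mean (median -0.07; -0.02 without heart 2), with Vwf, von Willebrand factor, at -0.20 (-0.02 without heart 2) and Sox7 the other way. Of 12 smooth muscle and pericyte markers 9 had a higher mean (median 0.10). Abcc9, a subunit of potassium channels of pericytes and of cardiomyocytes, was 12069.6, 12401, 13238 and 13922 in wild-type hearts 1 to 4 and 16482, 14189.9, 17212, 16095 and 17081 in knockout hearts 6 to 10, without overlap, a difference of 0.33 ± 0.10 (SE) (limma adjusted p = 0.851), and Acta2 was at -0.29. The 3 lymphocyte markers tested had lower means in knockout, and none passed (median -1.29). Igkc, an immunoglobulin light chain, was 103, 211, 143 and 579.5 in wild type and 124, 35.6, 84.3, 116 and 94.4 in knockout. Ighm, a heavy chain, was 139, 242, 252 and 586 in wild type and 169, 104, 215, 162 and 85.3 in knockout, and wild-type heart 4 was highest in both. Of 19 lymphocyte markers 16 were not among the listed genes. Erythrocyte markers had a median of -0.21 over 6 genes (0.09 without heart 2), with Bpgm at -0.33 and Alas2 at -0.36 (-0.19 without heart 2). Adipocyte markers had a median of 0.01 over 4 (-0.05 to 0.08 with a heart left out), with Plin4 at 0.27 and Fasn at 0.34 (0.19 without heart 2). Schwann cell and neuron markers had 2 genes tested, too few to summarise, and no epicardial marker was listed. The part of cell makeup in the values of single genes was not tested.

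**Figure D5:**
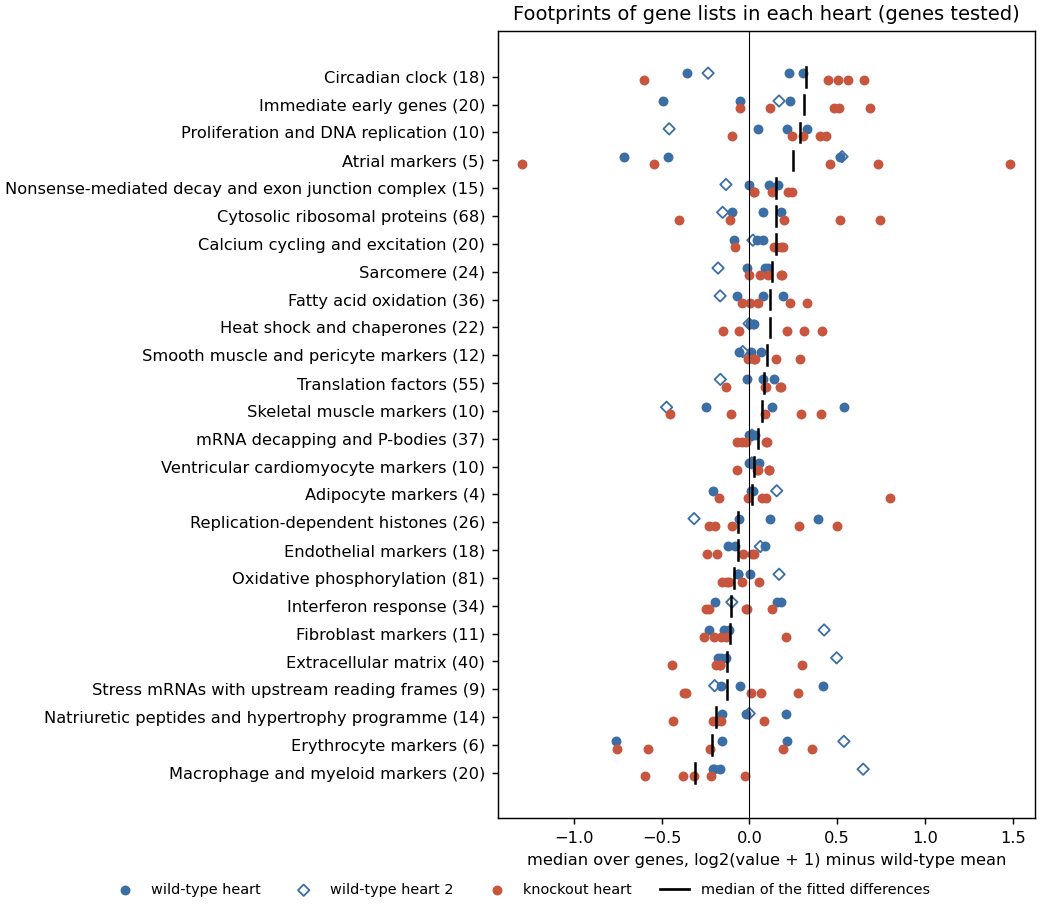
Median over the tested genes of each list (number in brackets) of log2(value + 1) minus the gene's wild-type mean, in each heart; vertical bars mark the median of the fitted differences, and the 3 lymphocyte markers are left out. Wild-type heart 2 (open diamonds) is the highest heart for macrophage, fibroblast and matrix genes, and hearts of the 2 genotypes overlap in every list shown.

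The precision of each difference followed footprint level. The median SD within genotype was 0.30 on the log2 scale over all genes tested, 0.27 in wild type (0.19 without heart 2) and 0.29 in knockout. Over the 9974 genes tested in both assays it was 0.30 in footprints and 0.14 in RNA of the same hearts. By level, the median SD was 1.31 for 554 genes with means from 10 to 50, 0.50 from 50 to 200, 0.29 from 200 to 1000, 0.21 from 1000 to 5000, and 0.18 for the 578 genes above. The 95% interval lay within 1 on the log2 scale for 8154 genes (81.7%), and within 0.5 for 3449 (34.6%). Among 2886 genes with a mean of at least 1000 the interval lay within 1 for 99.0%. A fitted difference of at least 1 was found for 235 genes, of which 78 had a mean of at least 50.

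Genes with the largest spread within a genotype were near 0 in some hearts and well above 100 reads in others. Tma7, a small conserved protein gene, had 219, 0, 18.7 and 423 in wild type and 0, 229.7, 223, 298 and 219 in knockout, with an SD of 3.73. Gbp2b, an interferon-inducible GTPase, had 118, 3.45, 6.23 and 0 and 339.6, 0, 0, 5.92 and 188, and Fbxo44, a ubiquitin ligase adaptor, 316, 145, 255 and 458 and 0, 15.4, 486, 428 and 468. Ptprn2, a tyrosine phosphatase-like protein of secretory vesicles, had 1.82, 13.8, 0 and 1.52 in wild type and 269, 237, 59.1, 8.88 and 0 in knockout, with hearts 6, 7 and 8 above the rest. Its RNA was 338, 354 and 310.3 in those hearts and at most 5.80 in the other 6. Fbxo44 RNA was 12.8 and 12.6 in hearts 6 and 7, where its footprints were lowest, and 73.4 to 246 in the others. Tma7 RNA was even, at 239 to 302 in all 9 hearts. Rpl30 RNA was 3718, 3760.1, 3601 and 3577 in wild type and 2577, 2484, 3061, 2997 and 2903 in knockout. The RNA of the same heart was thus low or high with the footprints for Ptprn2 and Fbxo44 and not for Tma7. For Rpl30 it had the same order as the footprints among knockout hearts, over a far narrower range, and not among wild-type hearts. Mybphl, a myosin-binding protein enriched in atria, had 139, 24.2, 10.9 and 21.2 and 286, 195, 0, 123 and 8.28. Hist1h2al, Tmprss13 and Rpl30 complete the 8 genes with the largest spread, with SDs of 2.98, 2.88 and 2.63. None of the 8 passed the test.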

How the data were processed

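Ribosome footprints and poly-A RNA come from the left ventricle of 9 mice (4 wild type, 5 knockout); the footprint libraries are analysed here. Per the labels' protocols, footprint libraries were made with a NEXTflex small RNA kit. The submitters' processing notes name the build GRCm38 (mm10), HTSeq, DESeq2 and STAR 2.7.1a without roles. The sources used here do not say how genes were filtered or whether counting used strand. The deposited values are a normalized signal: per the file headers and the even steps between values, the authors scaled the read count of each gene with a size factor of its library. Whole reads were recovered from the step between values for 100% of values (tolerance 0.01 reads). Gene symbols were matched for 10560 of 10597 identifiers, and coordinates come from RefSeq on GRCm38.

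limma 3.58.1 in R 4.3.3 was run on log2(value + 1) of genes with a mean of at least 10, with its trend option, genotype as the only term and Benjamini-Hochberg adjustment. It has 7 residual degrees of freedom among hearts. The deposited fold changes and p-values were not used. The fit was also run on simulated footprints of 9943 genes, 200 of them changed, with each gene drawn independently. It recovered 15.2% of log2 changes of 0.5, 71.6% of those of 1 and 90.9% of those of 2, with 2 calls among unchanged genes. Benjamini-Hochberg adjustment is stricter where fewer genes pass, and shifts shared by many genes of a heart were not simulated. These shares therefore do not give the power of the real comparison. edgeR 4.0.16 and DESeq2 1.42.0 were run on the recovered reads as alternatives. Other alternatives were pseudocounts of 0.5 and 10, no filter, a minimum mean of 50, TMM factors, quantile normalization, array weights, no trend, an adjusted p below 0.1, and leaving out each heart. No 2 libraries of a genotype agreed within sampling noise (chi-square per degree of freedom at least 27.4). The labels give no batch. The 17 pathway and 12 marker lists, and the genes compared, were chosen with earlier results of these data known. Named genes are the target, genes past the test, the 12 higher and 12 lower genes with the smallest p and a mean of at least 50, up to 10 genes each that edgeR or DESeq2 passed, the 2 members of each list with the smallest p, the 10 highest genes in wild type, the 8 with the largest spread, and 2 on either side of the minimum.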

Additional observations from a re-analysis of the deposited data

Results flagged for a closer look

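Values far from the other hearts of their genotype (the gap to the nearest heart exceeds Dixon's limit for that group size) were found in 17 of 180 groups checked, or 9.44%, where chance gives about 1 in 20. The groups checked include 8 genes chosen for a large spread within a genotype, from which 5 of the 17 come (Rpl30, Tma7, Gbp2b, Mybphl and Ptprn2), so the share is not a measure of excess over chance. Knockout heart 6 gave the most, in both directions. Its library total was 40.8 M reads, beside 22.9 to 26.7 M in the other knockout hearts. Col1a1 in that heart was 11282, beside 4953 to 6025 in the others. Col3a1 there was 10094, beside 4575 to 5291 in the others. Acta2 there was 12719, beside 8452 to 9646 in the others. Lsm3 there was 429.9, beside 685 to 698 in the others. Rbm8a there was 837, beside 697 to 729 in the others. Rps2 there was 585, beside 107 to 230.2 in the others. Tma7 there was 0, beside 219 to 298 in the others. In the knockout, Nppb in heart 10 was 9398, beside 5619.7 to 6678 in the others, and Hspa1a in heart 7 was 1955, beside 34.6 to 211 in the others.

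In wild-type heart 2, Gm20594 was 1145859, beside 54142 to 111061 in the others, Vwf was 4759, beside 2751 to 3008 in the others, and Ptprn2 was 13.8, beside 0 to 1.82 in the others. A single read in heart 2, the shallowest library, equals 3.45 normalized reads, so its Ptprn2 value is only a few reads. In wild-type heart 4, Ighg2c was 118, beside 0 to 14.0 in the others, and Rpl30 was 508, beside 4.24 to 14.0 in the others. In wild-type heart 1, Gbp2b was 118, beside 0 to 6.23 in the others, and Mybphl was 139, beside 10.9 to 24.2 in the others. The values are normalized footprint reads except for the library total.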

How the results depend on the processing

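The direction of Nbdy and Nppb held under every alternative run, while the number of genes past the test is small enough that 1 heart or tool alters it. Genes higher in knockout numbered 0 in the reported fit, 1 with no mean-variance trend, 2 with DESeq2 on recovered reads, and 0 to 1 when a heart was left out. Genes lower numbered 2, then 1 with no filter on low values, 1 with no trend, 4 with DESeq2, and 0 to 2 when a heart was left out. Leaving out 1 heart put 118 to 224 genes higher and 116 to 208 lower with groups that do not overlap, since fewer hearts leave less to overlap. With a heart left out, Nbdy ranged from -3.64 to -3.07 (limma adjusted p from 0.0186 to 0.194) and Nppb from -1.09 to -0.88 (0.006 to 0.194). Nppb was -0.97 with no filter (adjusted p = 0.0587) and -0.97 with no trend (adjusted p = 0.871); the cause was not tested. Its RNA difference stayed between 0.02 and 0.29 with a heart left out. Of 1378 alternatives of the 69 other named genes 1371 stayed on the same side of the threshold and 7 passed it (Cenpf, Myh8, Cpxm2 and Ighg2c with DESeq2, Cenpf without wild-type heart 4, Myh8 without knockout heart 10, Armcx1 with no trend), and 0 changed direction. Without heart 2 the sarcomere and nonsense-mediated decay medians moved by more than the spread between hearts, to 0.01 and 0.04. No paired analysis was possible because the wild-type and knockout hearts share no numbers. Footprint depth limits low genes most: for means from 10 to 50 the median half-width of the 95% interval was 1.83 on the log2 scale.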
